A study of Mus musculus with 4 samples.

Results

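The genes described are the hypothalamic peptide hormone genes Oxt and Avp and the receptor genes Oxtr, Avpr1a and Avpr1b, 5 of the 19938 genes that could be named from the array's probe sets. They were taken by symbol from the deposited expression table. Each had exactly 1 probe set, the group of array probes that reports on a transcript, and each probe set carried a single gene symbol. The study injected C26 colon adenocarcinoma cells, a mouse tumour line that causes wasting, under the skin of male mice of the CDF1 hybrid (BALB/c x DBA/2) and profiled RNA of the hypothalamus by microarray on day 20. The control array held pooled RNA of 4 mice given a sham injection of 0.2 ml Hanks' balanced salt solution. The tumour-bearing arrays held pooled RNA of 4 mice given 500000 cells, pooled RNA of 3 mice given 1000000 cells and RNA given as that of 1 mouse injected with 2000000 cells. The labels disagree on this last sample, since its source name gives 1 animal and its title calls it pooled. These groups are called 0.5M, 1M and 2M. All mice were on the same standard diet and were 10 to 11 weeks old. Every group was 1 array, so a difference at a single cell number has no replicate check.

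Oxytocin and vasopressin are small peptides cut from larger precursors that also carry the neurophysin that accompanies them in the secretory granule. Magnocellular neurons of the paraventricular and supraoptic nuclei make them and release them into the blood from the posterior pituitary, where vasopressin governs water retention and oxytocin acts on uterus and mammary gland. Oxytocin neurons of the paraventricular nucleus that project to the hindbrain are known to restrain feeding, and vasopressin of the parvocellular neurons acts with corticotropin-releasing hormone on the pituitary corticotrophs. The receptors of Oxtr, Avpr1a and Avpr1b all signal through Gq proteins and phospholipase C.

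Oxt (gene ID 18429) and Avp (gene ID 11998) lie next to each other on mouse chromosome 2, on opposite strands, with 0 annotated genes between them in the RefSeq annotation of GRCm38.p6. Their promoters are shown because these neighbours were the members with the highest differences from control. Each run holds the 250 bases before the annotated transcript start, 5′ to 3′ on the strand of the gene, from RefSeq on GRCm38.p6, at chr2:130575919-130576168 on the plus strand for Oxt and at chr2:130582589-130582838 on the minus strand for Avp. Capitals mark matches to 4 searched motifs, on either strand.
Oxt: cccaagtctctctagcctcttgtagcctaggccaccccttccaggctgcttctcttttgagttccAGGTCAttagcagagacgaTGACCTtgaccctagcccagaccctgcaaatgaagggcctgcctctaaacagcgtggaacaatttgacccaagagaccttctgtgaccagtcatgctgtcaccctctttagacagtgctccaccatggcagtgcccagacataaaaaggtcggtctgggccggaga
Avp: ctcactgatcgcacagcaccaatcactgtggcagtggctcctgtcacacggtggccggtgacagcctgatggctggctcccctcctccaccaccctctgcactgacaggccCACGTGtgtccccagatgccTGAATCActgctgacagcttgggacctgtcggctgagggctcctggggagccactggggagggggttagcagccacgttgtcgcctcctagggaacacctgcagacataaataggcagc
The motifs were AGGTCA, the half-site of nuclear hormone receptors, TGACGTCA, the cyclic AMP response element, CACGTG, an E-box of the kind bound by clock proteins, and TGANTCA, the AP-1 site. In Oxt, AGGTCA occurred at 2 places, whose first bases lie 185 and 166 bases before the start, the one nearer to it on the opposite strand. In Avp, CACGTG began 139 bases and TGAATCA 119 bases before the start. TGAATCA matches the looser form and not the AP-1 site itself. No matches overlapped. Of 32851 RefSeq promoter windows of the same length, 14.0% held AGGTCA and 1.36% held it at least 2 times, 6.02% held CACGTG, 6.75% held TGANTCA and 1.55% held TGACGTCA. The Oxtr window held AGGTCA 98 bases and CACGTG 43 bases before the start, and the Avpr1a window held none of the 4 motifs. Of the 5 members, 4 had a promoter window. A match describes the letters and shows no binding.

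Values are on a log2 scale, so a difference of 1 is a doubling of the signal. Probe sets differ in how well they bind, so levels are compared between arrays and not between genes. Genes below the 40th percentile of the gene means, 6.59 log2, were left out of tests and of counts over all genes, unless all 19938 genes are named. The 11963 genes past it include 4 of the 5 members, and Avpr1b lay below. Array medians ran between 6.72 and 6.77 log2, and the arrays correlated at 0.984 to 0.994 over all probe sets. Of the markers that define the hypothalamus, Pmch, Hcrt and Sst stood above 11 log2 on all arrays, while Agrp could not be named from the annotation and Rax and Kiss1 lay below the filter value. The 0.5M array stood apart in 2 of the 7 measured pituitary genes, Gh and Prl. Of the other 5, Tshb, Cga, Lhb and Fshb lay at 0.5M between their levels at 1M and 2M, and Pitx1 was at 6.29 log2 at 0.5M, 6.25 at 1M and 6.16 at 2M. Gh, the growth hormone gene, was at 6.13, 10.8, 6.91 and 6.85 log2 in control, 0.5M, 1M and 2M, and Prl, the prolactin gene, at 3.95, 7.80, 4.50 and 4.51, with a mean below the filter value. The control array had more signal of the raphe gene Tph2, which encodes the serotonin-synthesis enzyme, at 6.28 log2 in control against 5.44, 5.12 and 5.26 in the 0.5M, 1M and 2M arrays.

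Both hormone genes were higher in every tumour-bearing array than in the control array, and neither passed the test over all genes. Oxt stood at 9.77 log2 in control and at 10.56, 10.59 and 10.39 log2 at 0.5M, 1M and 2M. The control array was the lowest, 0.62 log2 under the nearest tumour-bearing array, and the tumour-bearing arrays lay within 0.19 log2 of each other. The differences from control were 0.79, 0.81 and 0.62 log2, or 1.73-fold, 1.76-fold and 1.54-fold. The mean over the tumour-bearing arrays was 10.52 ± 0.11 log2 (SD, n = 3) against 9.77 in the control array (n = 1), a 1.67-fold difference. In limma, fitted on all 11963 genes with the tumour-bearing arrays as 1 group, the difference was 0.74 log2 with a standard error of 0.11 and a 95% interval of 0.47 to 1.01, or 1.39-fold to 2.01-fold. The unadjusted p was 0.000411 and the p adjusted over all genes 0.289.

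Avp stood at 9.92 log2 in control and at 10.42, 10.48 and 10.47 log2 at 0.5M, 1M and 2M. Its tumour-bearing arrays lay closer together than those of Oxt, within 0.067 log2, and all above the control array, by 0.50 log2 for the nearest. The differences were 0.50, 0.56 and 0.55 log2, or 1.41-fold, 1.48-fold and 1.46-fold. The tumour-bearing mean was 10.46 ± 0.035 log2 (SD, n = 3) against 9.92 in control, a 1.45-fold difference. The limma difference was 0.53 log2 with a standard error of 0.091 and a 95% interval of 0.32 to 0.75, or 1.25-fold to 1.69-fold, with an unadjusted p of 0.000816 and an adjusted p of 0.313. In this bulk tissue, more peptide neurons in the dissected piece and more RNA per neuron cannot be told apart. The spread in these fits comes only in part from the gene's own tumour-bearing arrays, which differ in cell number and pool size. The eBayes step draws it toward the spread over all tested genes, with 4.45 prior against 2 residual degrees of freedom. The intervals and p-values therefore rest largely on other genes. The lone control array is assumed to vary like the others, and each difference shares that control array.

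**Figure D1:**
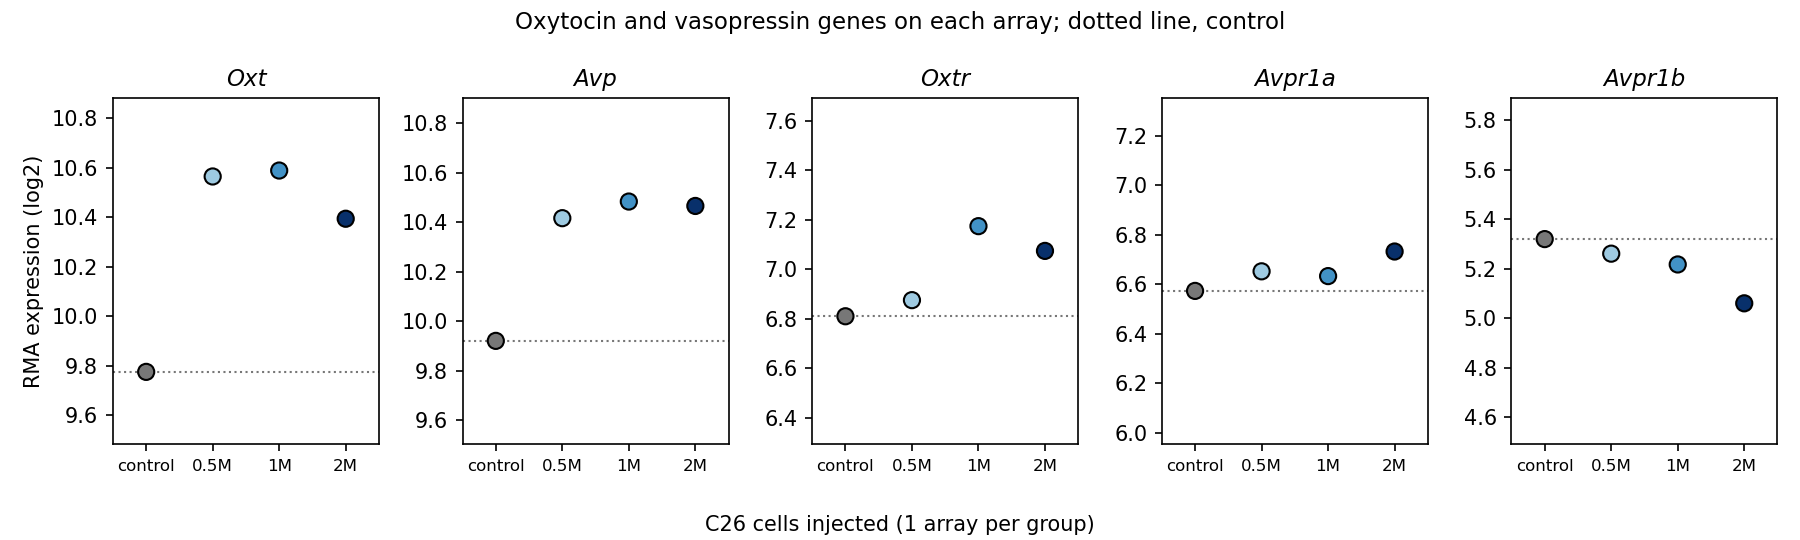
RMA expression (log2, vertical axis, each panel spanning the same log2 range) of Oxt, Avp, Oxtr, Avpr1a and Avpr1b on the control, 0.5M, 1M and 2M arrays, 1 point per array, with the control value as a dotted line. Oxt lies 0.62 to 0.81 and Avp 0.4958 to 0.563 log2 above control on the tumour-bearing arrays, while the receptor genes differ from it by 0.36 log2 at most.

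By rank among the 11963 genes, Oxt was number 24 and Avp number 68 from the top for the mean difference, and number 17 and number 30 for the smallest p. For the smallest of the 3 differences they were number 21 and number 37. In limma 6 genes were called higher at an adjusted p of 0.05, 0.0502% of those tested, and 0 of the 4 tested members were among them. At an unadjusted p under 0.05, 6.19% of all genes were higher and 4.61% lower, and 2 of the 4 tested members, Oxt and Avp, were higher. Oxt was at least 0.5 log2 above control at all 3 cell numbers, as were 0.301% of genes. Avp passed that size at 1M and 2M and lay just under it at 0.5M, at 0.4958 log2. Of all genes past the filter, 0.56%, 1.63% and 1.24% reached it at 0.5M, 1M and 2M. The control array lay below the tumour-bearing arrays by more than their own range in both hormone genes, which was the case in 11.5% of genes. An exact two-sided permutation of the lone array gave p = 0.25 for Oxt and for Avp, the smallest value that 4 arrays allow.

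**Figure D2:**
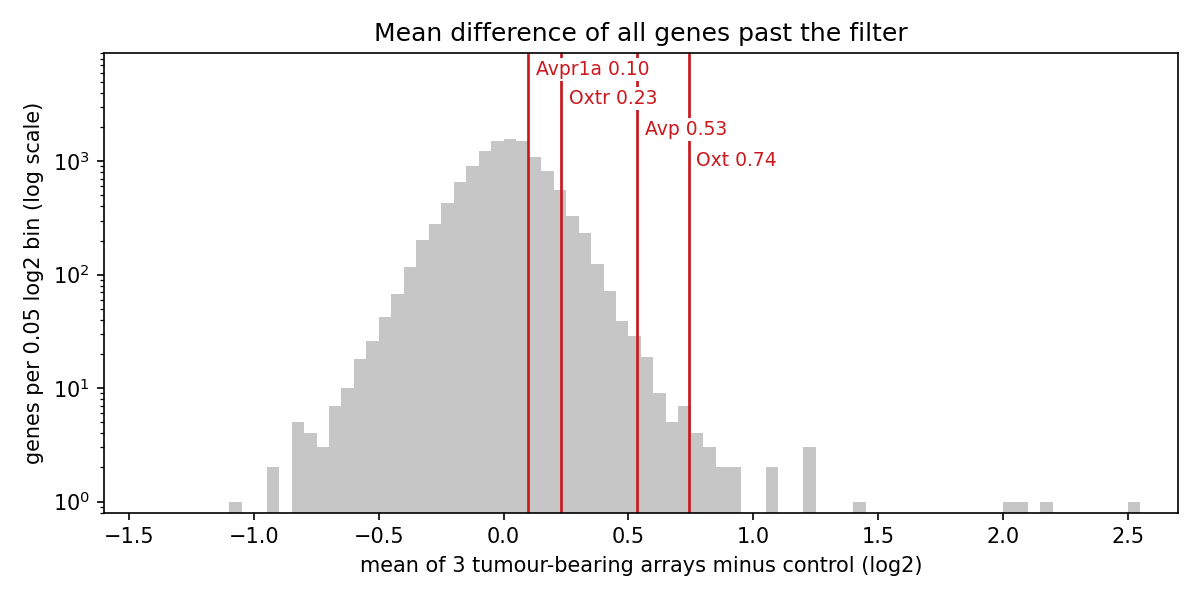
Number of genes (vertical log axis, bins of 0.05 log2) by the mean difference of the 3 tumour-bearing arrays from control (horizontal axis, log2) for the 11963 genes past the filter, with the tested members as red lines. Oxt at 0.74 and Avp at 0.53 lie in the upper tail, Oxtr at 0.23 on its shoulder and Avpr1a at 0.10 in the bulk.

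The difference from control was not ordered by cell number in either hormone gene. Oxt was 0.024 log2 higher at 1M than at 0.5M and 0.19 log2 lower at 2M than at 1M (-0.19). Avp at 2M differed from 0.5M by 0.049 log2 and from 1M by -0.018 log2. A linear trend over all 4 arrays in limma, with control as 0 cells, had a slope of 0.23 log2 per 1000000 cells for Oxt (95% interval -0.12 to 0.58, adjusted p = 0.817). For Avp the slope was also 0.23 (95% interval -0.00221 to 0.457, limma adjusted p = 0.766). In the trend 0.0% of genes passed, and 6.52% had an unadjusted p under 0.05 against 0 of the 4 tested members. The unadjusted limma p of Avp was 0.0517, and it was under 0.05 in 8 of 9 alternatives. That of Oxt was so in 2 of 9 and that of Oxtr in 3 of 8. Some of these shifts were small, with limma p for Avp of 0.048 with the 60th percentile filter and 0.0443 with cyclic loess. Over all genes the number also moved, to 1191 of 11963 by rank of cell number against 780 in the main fit. Avp, Oxt and Oxtr passed an adjusted p of 0.05 in none of the alternatives. The 2M array carried most of the weight. Without that array the slopes were 0.81 for Oxt and 0.56 for Avp. With the remaining cell numbers evenly spaced, these slopes equal the 1M differences from control and add nothing on a trend. The change of Oxt exceeded that of Avp by 0.29, 0.25 and 0.074 log2 at 0.5M, 1M and 2M, values without a replicate.

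On these arrays the receptor genes lay closer to control than the hormone genes. Signals of the receptor genes lay near or below the filter value, and whether low signal narrowed their differences was not tested. Oxtr (gene ID 18430, chromosome 6), which encodes the oxytocin receptor, stood at 6.81 log2 in control and at 6.87, 7.17 and 7.07 log2 at 0.5M, 1M and 2M. The 0.5M array was close to control and the other tumour-bearing arrays were higher, by 0.36 log2 at 1M and 0.26 at 2M. The limma difference was 0.23 log2 with a 95% interval of -0.085 to 0.55 (standard error 0.13, adjusted p = 0.545). Its range within the tumour-bearing arrays, 0.30 log2, was larger than its mean difference. Without the 0.5M array, the one nearest to control, the difference was 0.31 log2. That was the highest of 7 alternatives, which ran from 0.16 to 0.31 log2.

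Avpr1a (gene ID 54140, chromosome 10), the vasopressin receptor gene of brain, liver and vessel wall, stood at 6.57 log2 in control and at 6.65, 6.63 and 6.73 log2 at 0.5M, 1M and 2M. Its differences were 0.079, 0.060 and 0.16 log2, and the limma interval for the mean difference, 0.099 log2, ran over -0.13 to 0.33 (adjusted p = 0.721). At 1M the sign turned to -0.029 with cyclic loess in place of the deposited scaling. The control value lay just under the filter value, so that the gene passed through its mean. Avpr1b (gene ID 26361, chromosome 1), the receptor gene through which vasopressin acts on pituitary corticotrophs, stood at 5.32 log2 in control and at 5.26, 5.22 and 5.06 log2 at 0.5M, 1M and 2M. It was the 1 member with all tumour-bearing arrays below control, by -0.059, -0.10 and -0.26 log2. With no filter its limma interval was -0.44 to 0.16 (adjusted p = 0.797). All 3 tumour-bearing arrays lay above control in 4 of the 5 members, against 33.2% of all 19938 genes, and below control in 1, against 22.5%.

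Genes that process the precursors and load the granules lay near control. The list held 12 genes, of which Pcsk2, Cd38 and Lnpep could not be named from the annotation. Of the 9 measured, all past the filter, 0 passed limma in either direction, and 0 had an unadjusted p under 0.05. At every cell number 1 lay above and 1 below control, beside 33.2% and 22.5% of all 19938 genes. These shares apply to each such count in the lists below. Their median difference was 0.0084 log2, beside 0.015 over all tested genes and 0.031 over all 19938. Pcsk1, a prohormone convertase, stood at 9.81 log2 in control and at 9.66, 9.51 and 9.61 at 0.5M, 1M and 2M, a mean difference of -0.22 ± 0.076 log2 (SD over the tumour-bearing arrays, n = 3, as for all listed genes below). Chgb, a granin of dense-core vesicles, was 0.17 ± 0.14 log2 from control, Cpe, the carboxypeptidase that trims the cut ends, -0.083 ± 0.092, and Pcsk1n, a convertase inhibitor, 0.031 ± 0.15. Without the 1M array Pcsk1n turned to -0.054.

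Downstream of the receptors, 7 of 8 listed genes were measured, 6 of them past the filter. At every cell number 3 lay above and 2 below control, their median was 0.054 log2, and 0 reached an unadjusted or adjusted p under 0.05 in limma. Gnaq and Gna11, the Gq family subunits, lay on opposite sides of control, at -0.15 ± 0.042 and 0.11 ± 0.058 log2. Rgs2, which turns Gq signalling off, was at 0.15 ± 0.032 and Plcb3, a phospholipase C, at 0.15 ± 0.080. Avpr2, the vasopressin receptor gene of the kidney, lay below the filter value, between 5.89 and 6.26 log2 on all arrays.

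Most transcription factors and imprinted genes listed for the formation or upkeep of these neurons stood above control, on the same arrays as the hormone genes. Of 8 listed and measured genes, 6 lay above and 1 below control at every cell number, beside 33.2% and 22.5% of all 19938 genes. Their median was 0.23 log2, and 3 genes, Otp, Sim1 and Magel2, were higher at an unadjusted p under 0.05, beside 6.19% of all genes tested. The probe set used for Pou3f2 also was, but no direction is given for this gene because its probe sets disagree. By the probe set used, Pou3f2 is counted among the 6 above control and in the median. After adjustment over all genes in limma, 0 of the 7 past the filter passed. Differences of like size were also seen outside this list, with Pmch at 0.36, Sst at 0.36 and Lhb at 0.35 log2. Otp, required for the neuroendocrine cell lineages, stood at 8.24 log2 in control and at 8.53, 8.70 and 8.61 at 0.5M, 1M and 2M, a difference of 0.37 ± 0.085 (limma adjusted p = 0.375). Sim1, the paraventricular transcription factor gene, stood at 7.88 log2 in control and at 8.19, 8.16 and 8.14, a difference of 0.29 ± 0.021 (limma adjusted p = 0.38). In both, the control array was lower than every tumour-bearing array, and the tumour-bearing arrays of Sim1 lay between 0.27 and 0.31 log2 above it. Magel2, an imprinted gene of the Prader-Willi region whose loss in mice impairs the oxytocin system, was 0.33 ± 0.15 log2 from control, and Ndn, its neighbour there, -0.20 ± 0.17.

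Pou3f2, the partner of Sim1 in this lineage, had probe sets that disagreed. The one with the higher mean, used here, was at 6.98 log2 in control and at 7.43, 7.79 and 7.52 at 0.5M, 1M and 2M. The other was at 7.17 log2 in control and at 6.78, 5.66 and 6.17. Their mean differences were 0.60 and -0.96 log2, and averaged they gave -0.18, so no direction is given for this gene. With probe sets averaged, 5 of the 8 genes of the list lay above control at every cell number and the median was 0.16 log2. With cyclic loess 5 did so and the median was 0.24.

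Among 13 peptides and enzymes that these or the parvocellular neurons also make, 5 lay above and 3 below control at every cell number, and the median was 0.079 log2. In limma 0 passed, and 1 higher and 1 lower gene had an unadjusted p under 0.05, beside 6.19% and 4.61% of all genes tested. Trh, the thyrotropin-releasing hormone gene of the parvocellular neurons, was the higher one, at 0.34 ± 0.042 log2 (limma adjusted p = 0.375). Adcyap1, the gene of the peptide PACAP, was the lower one, at -0.22 ± 0.036 (limma adjusted p = 0.458). Gal, the galanin gene, was at 0.25 ± 0.14, and Cck, the cholecystokinin gene, which oxytocin neurons also make in the rat, at -0.23 ± 0.072. Pdyn, the dynorphin precursor gene that vasopressin neurons co-express, stood at 7.30, 7.42, 7.61 and 7.34 log2 in control, 0.5M, 1M and 2M. Crh, below the filter value, stood at 5.28, 5.07, 5.09 and 5.96.

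Genes that magnocellular neurons switch on with dehydration or firing showed no common direction. Of 10 genes, all measured, 7 were past the filter, and 1 lay above and 2 below control at every cell number. In limma 0 passed and 0 had an unadjusted p under 0.05. Their median was 0.0078 log2, or -0.0060 with cyclic loess. Creb3l1 and Caprin2, which in the rat act on vasopressin transcription and mRNA, differed from control by -0.014 and 0.029 log2 on average. Rasd1 was at 0.21 ± 0.11, Junb at 0.13 ± 0.22 (-0.000569 without the 1M array), and Atf3 and Fos, both below the filter value, at 0.078 ± 0.094 and -0.27 ± 0.14.

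**Figure D3:**
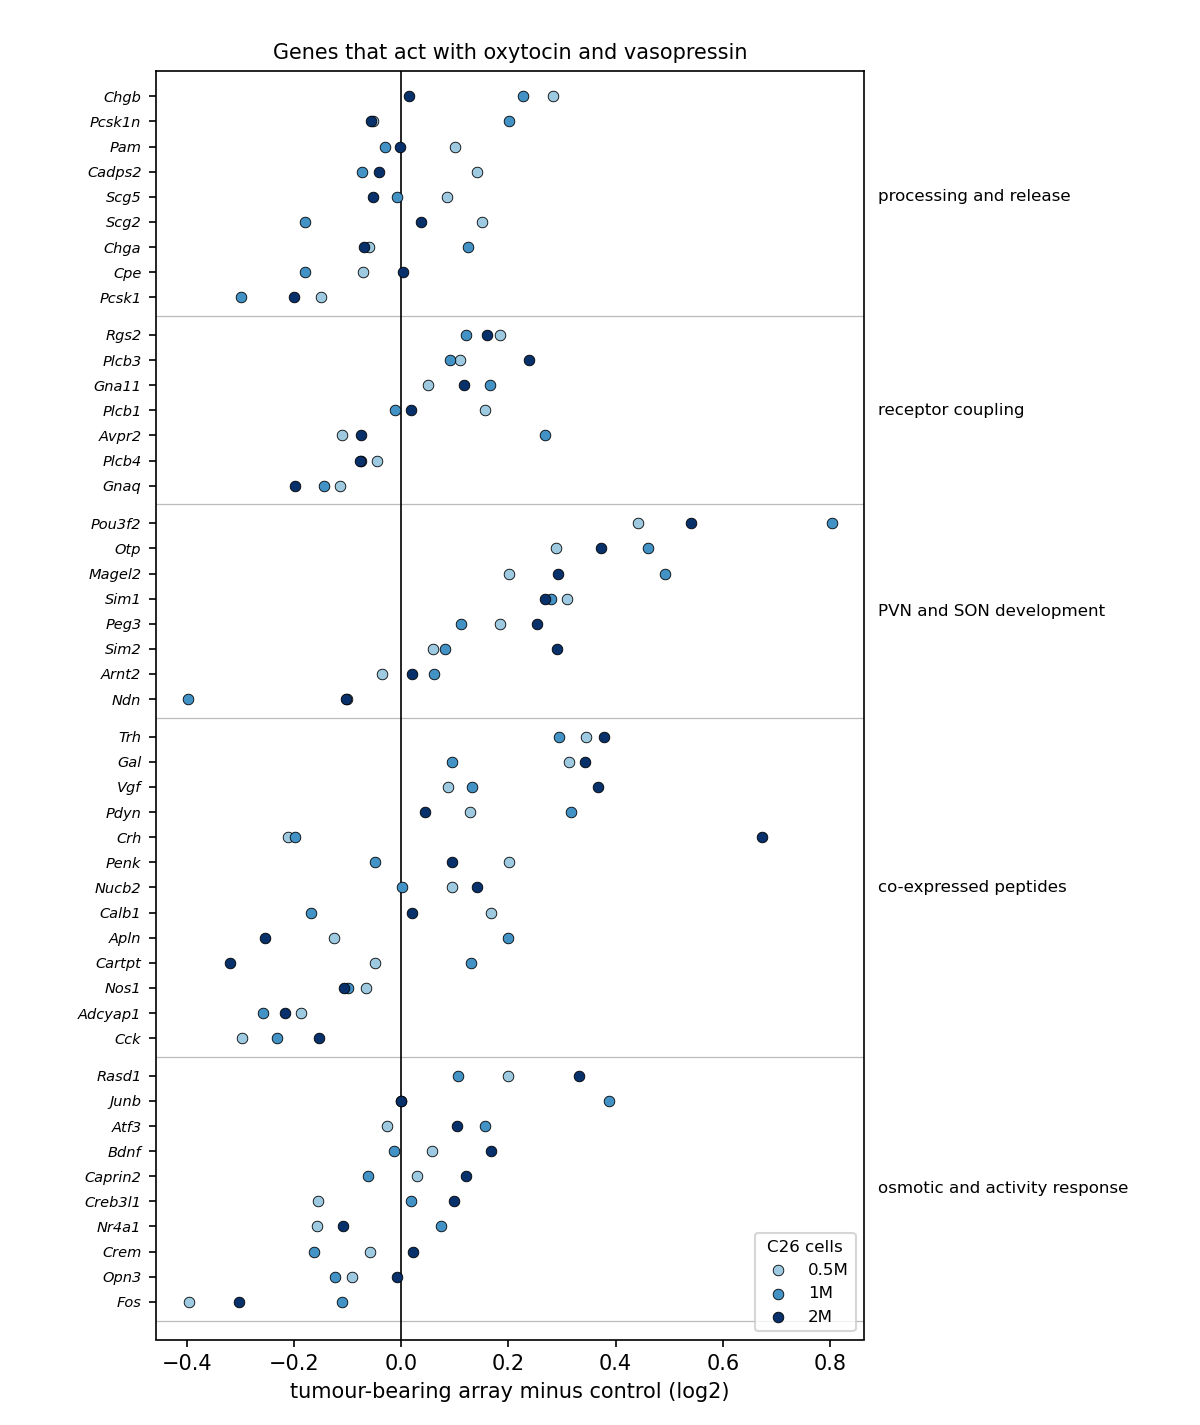
Difference of each tumour-bearing array from control (log2, horizontal axis) for every measured gene of 5 lists, 1 point per cell number. The paraventricular and supraoptic (PVN and SON) list lies mostly to the right of 0, with Otp at 0.37 and Sim1 at 0.29 on average, the Pou3f2 points are of 1 of its 2 disagreeing probe sets, and the processing list straddles 0 with a median of 0.0084.

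Markers of other regions moved with the same contrast, and their part in the results above was not tested. The midbrain and hindbrain list had 0 of 6 measured genes above and 5 below control at every cell number, beside 33.2% and 22.5% of all 19938 genes. Its median was -0.39 log2. Its summed log2 value was 47.4 on the control array, 45.5 on the 0.5M, 44.3 on the 1M and 45.0 on the 2M array. Tph2, below the filter value, was at -1.01 ± 0.16 log2 and Th, tyrosine hydroxylase, at -0.46 ± 0.25. En1 was at -0.40 ± 0.13 and the dopamine transporter gene Slc6a3 at -0.37 ± 0.29. Pitx3, the measured gene of the list not below control throughout, was at -0.14, 0.22 and 0.20 log2 at 0.5M, 1M and 2M. In the pituitary list 6 of 7 measured genes lay above and 1 below control at every cell number. The median was 0.34 log2, and the summed log2 value was 42.3 on the control array, 51.8 on the 0.5M, 44.8 on the 1M and 43.9 on the 2M array. Gh and Prl led it, and Lhb and Tshb, of which Tshb lay below the filter value, were at 0.35 ± 0.026 and 0.34 ± 0.046 log2. Without the 0.5M array, the one highest in Gh and Prl, Oxt was 0.72, Avp 0.55 and Gh still 0.75 log2 above control. Prl was 0.55 and 0.56 log2 above control at 1M and 2M. These signals were low, since Prl and the control value of Gh, 6.13 log2, lay below the filter value. Cga, the 1 gene of the list below control throughout, was at -0.045, -0.013 and -0.50 log2 at 0.5M, 1M and 2M. The part of pituitary tissue in the differences of Oxt and Avp was not tested.

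Within the hypothalamus, the suprachiasmatic list, named for the clock nucleus that also makes vasopressin, had 2 of 8 genes above and 3 below control at every cell number and a median of 0.041 log2. Vip, below the filter value, was at 0.43 ± 0.097, Six6 at 0.22 ± 0.20, Prok2, also below it, at 0.12 ± 0.045 and Grp at -0.22 ± 0.12. The mammillary and posterior list had 4 of 6 genes measured, 1 above and 1 below control throughout, and a median of -0.020, with Barhl1 at -0.31 ± 0.19, Foxa1 at 0.21 ± 0.17, Foxb1 at -0.021 ± 0.039 and Lmx1b at -0.020 ± 0.15. The hypothalamus list had 4 of 10 measured genes above and 1 below, and a median of 0.062, with Npy at 0.68 ± 0.65, led by the 2M array, Pmch at 0.36 ± 0.044, Sst at 0.36 ± 0.094 and Pomc at -0.29 ± 0.15. The thalamus, striatum and cortex list had 4 of 7 above and 1 below and a median of 0.12, with Ppp1r1b at 0.49 ± 0.34, Rgs9 at 0.29 ± 0.16, Tcf7l2 at -0.24 ± 0.16 and Drd1 at 0.18 ± 0.21. The glia, vessel and choroid plexus list had 0 of 7 above and 3 below and a median of -0.030, with Aqp4 at -0.49 ± 0.16, Cx3cr1 at -0.34 ± 0.27, Cldn5 at -0.17 ± 0.048 and Gfap at 0.044 ± 0.18. In these 7 lists 0 genes passed limma over all genes. At an unadjusted limma p under 0.05, Pmch, Sst and Lhb were higher, and Th, En1 and Aqp4 were lower, beside 6.19% and 4.61% of all genes tested.

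**Figure D4:**
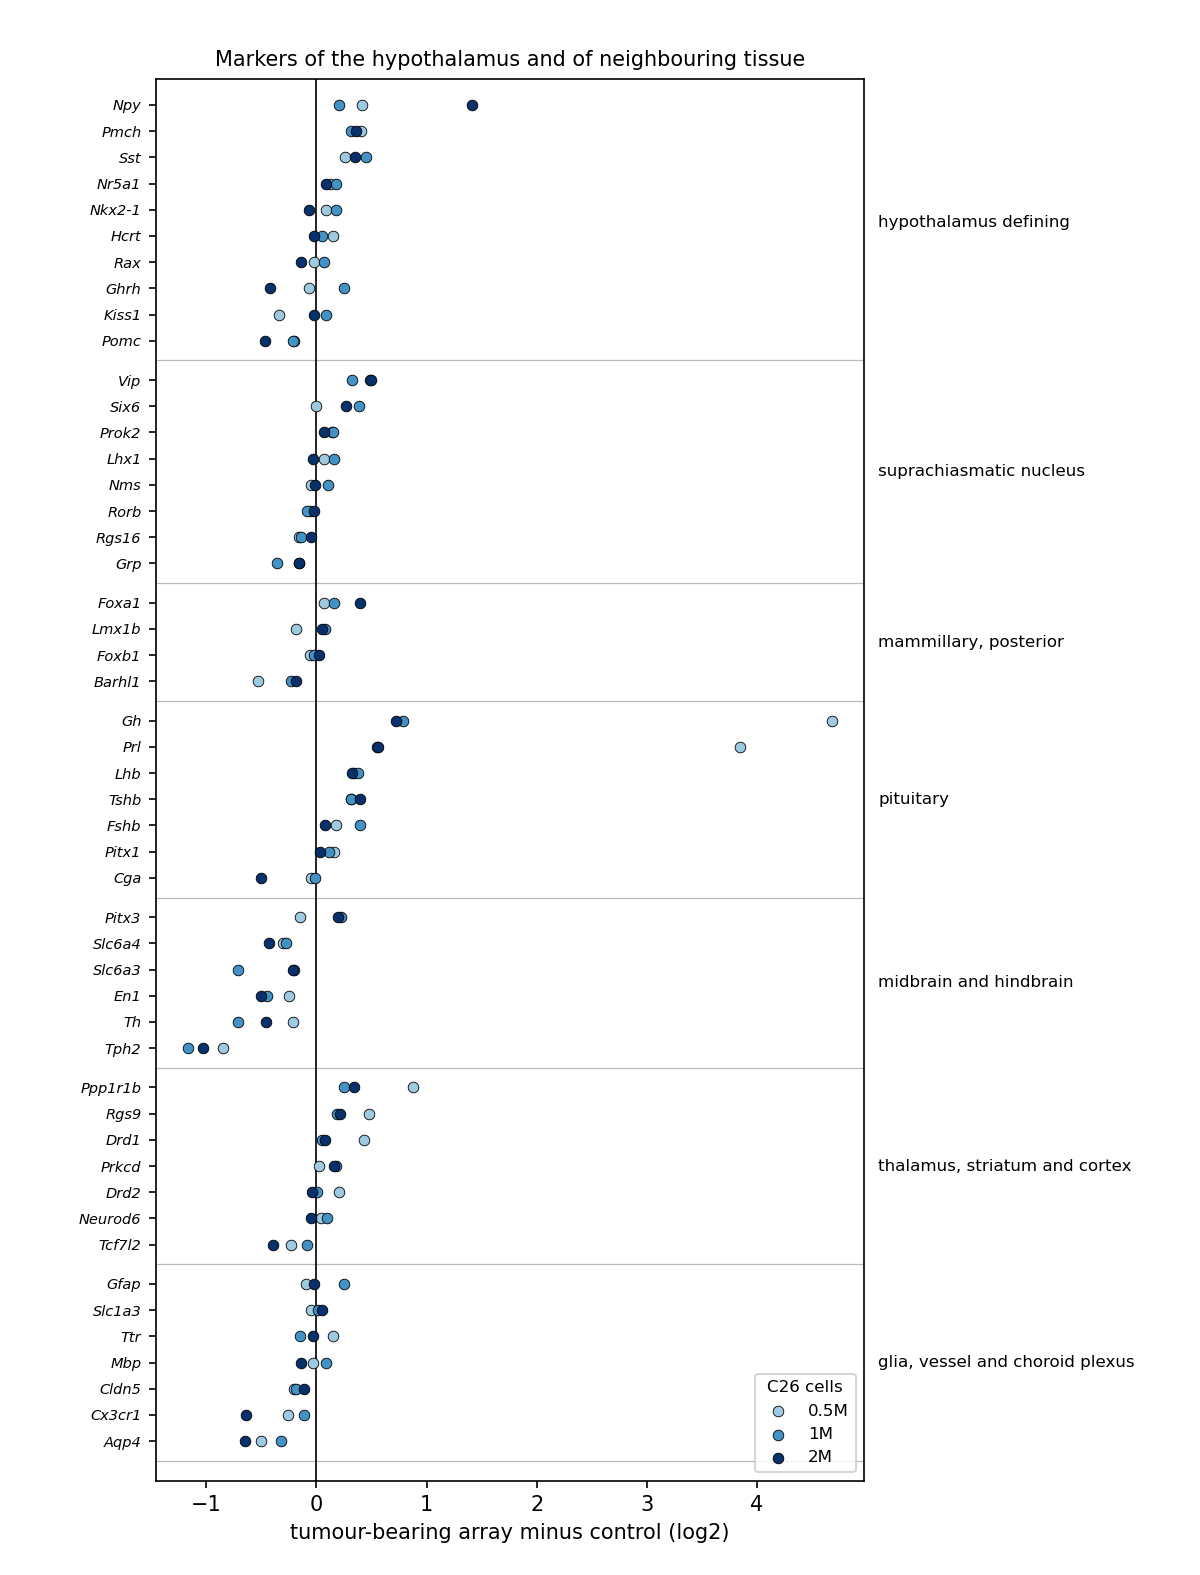
Difference of each tumour-bearing array from control (log2, horizontal axis) for every measured gene of 7 marker lists, 1 point per cell number. Tph2, Th, En1, Slc6a3 and Slc6a4 lie left of 0 on every tumour-bearing array, and Gh and Prl lie far to the right at 0.5M.

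The genes whose 3 differences were nearest to those of Oxt, by Euclidean distance over the 4 arrays, were Htr6, a serotonin receptor gene, at a distance of 0.077 log2, the microRNA genes Mir369 (0.14) and Mir543 (0.15), Vwf, the von Willebrand factor gene (0.17), and the microRNA gene Mir138-2 (0.20). Htr6 stood at 6.46 log2 in control and at 7.30, 7.26 and 7.02 at 0.5M, 1M and 2M. Avp was number 29 in this order, at a distance of 0.39, while Oxt was number 402 in the order of likeness to Avp. Nearest to Avp were Uqcc2, an assembly factor of respiratory complex III (0.046), Nol3, an apoptosis repressor gene (0.054), the microRNA gene Mir99a (0.056), Rpp21, a subunit of RNase P (0.056), and Rpl37a, a ribosomal protein gene (0.078). Uqcc2 stood at 9.57 log2 in control and at 10.1, 10.1 and 10.2 at 0.5M, 1M and 2M. A likeness over 4 arrays that share a control is a description of these arrays.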

How the data were processed

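RNA of mouse hypothalamus was measured on 4 arrays, 1 per group. The deposited table holds log2 expression values of 35556 probe sets, to which the authors had applied RMA (per the submitters' processing notes), a method that aligns all arrays by quantiles and so removes changes common to all transcripts. The sources used here do not name its version or a genome build. Per the labels' protocols, each array took 100 ng of RNA with an integrity number above 8. The platform annotation named 1 gene for 21789 probe sets, several for 1621 and none for 12146, which were not used. The probe set with the highest mean stood for a gene. Tests used limma 3.58.1 in R 4.3.3 (lmFit, eBayes, two-sided, Benjamini-Hochberg over all genes, threshold 0.05), with 2 residual degrees of freedom. From the spread over all tested genes, eBayes added 4.45 prior degrees of freedom in the tumour comparison and 5.62 in the trend. The fits were also run on simulated data. There the control was drawn to vary like the other arrays, so the simulation cannot check that assumption. Other values came from Python 3.11.15 with pandas 2.3.3 and numpy 2.4.6, and plots from matplotlib 3.10.9. The number of arrays limits the precision.

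The members, the 12 other lists (101 of 111 listed genes measured, members included) and the motifs were chosen with earlier results of these data known. Named from each other list were up to 4 genes with the largest absolute mean difference, and for Oxt and Avp the 5 nearest genes. Pdyn, Crh, Avpr2, Ndn, Sim2, Creb3l1, Caprin2, Slc6a4, Pitx3, Hcrt, Rax, Kiss1, Cga, Fshb and Pitx1 are outside this rule and were named after their values were seen.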

Additional observations from a re-analysis of the deposited data

How the results depend on the processing

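Oxt and Avp kept their direction in all 8 alternatives of the tumour comparison and passed an adjusted p of 0.05 in none of them, with differences of 0.70 to 0.80 and 0.52 to 0.55 log2 and limma adjusted p-values of 0.101 to 0.634 and 0.144 to 0.661. Oxtr ran from 0.16 to 0.31 and Avpr1a from 0.062 to 0.12 log2, also not passing. In 9 alternatives of the trend the slopes of Oxt and Avp were 0.19 to 0.81 and 0.17 to 0.56, both highest without the 2M array. At 1M, cyclic loess gave -0.029 log2 for Avpr1a and -0.22 for Avpr1b. Genes called in the tumour comparison numbered 6, but 1 with no filter, 2 with the 60th percentile filter and 3 to 6 when an array was left out. The trend called 0 (780 at an unadjusted p under 0.05), 2 with eBayes trend and robust, and 0 to 58 when an array was left out. Genes past 0.5 log2 at 0.5M, 1M and 2M numbered 102, 451 and 297, against 277, 958 and 599 with no filter and 10, 23 and 25 past 1 log2. Those past 0.5 log2 upward in all arrays, 36, were 38 to 81 when an array was left out, a choice made after seeing the data. Of 41 other tested genes that the rule named from the lists, 5 turned. Further named genes were not followed through the alternatives. Leaving out an array gave -0.054 to 0.074 for Pcsk1n, -0.000569 to 0.19 for Junb and -0.060 to 0.11 for Gfap, each negative without 1M, and -0.067 to 0.064 for Lmx1b, positive without 0.5M. Pou3f2 turned to -0.18 with probe sets averaged. The cause was not tested, except for Pou3f2, whose probe sets disagree. No paired analysis was possible because each group holds 1 array. The lone control array cannot be left out, and signal over background is not given per array.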
